A study of Homo sapiens with 2 samples.

Results

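Translation initiation factors are the proteins that bring the small ribosomal subunit, the initiator tRNA and an mRNA together at the start codon. The genes described here are all those whose array annotation begins with EIF1 to EIF6, apart from the eIF2 kinases and the older Argonaute names, as read by probe sets that carry a single gene name. They were 47 genes with 120 probe sets, of 19775 genes with 41097 such probe sets. The list holds 45 genes named for proteins, an antisense transcript and a divergent transcript. Expression was measured in AsPC-1, an established human pancreatic ductal adenocarcinoma cell line. One culture had been transfected with control siRNA and the other with siRNA against PGR, the progesterone receptor, and each was read on 1 array. The labels give DMEM with 10% fetal bovine serum as the medium, and the methods give another medium for this line. The question of the experiment was which mRNAs change when PGR is depleted.

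The initiator tRNA reaches the ribosome bound to eIF2 and GTP, and eIF2B recharges eIF2 with GTP after each round. eIF3 is a scaffold on the small subunit, and eIF4F, made of the cap-binding protein eIF4E, the scaffold eIF4G and the helicase eIF4A, recruits the mRNA. The eIF4E-binding proteins block eIF4E until mTORC1 phosphorylates them. mTORC1 also controls the translation of mRNAs that begin with a run of pyrimidines, known as 5′ terminal oligopyrimidine (TOP) mRNAs, which include those of ribosomal proteins and several initiation factors. The arrays measured mRNA level and not translation.

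Promoter sequences are shown first, because a pyrimidine run at the start was not spread evenly over the role groups. All letters searched here and in the next paragraph were chosen after seeing the windows, and the role groups with earlier results of these data known. The shares given are therefore descriptions of these sequences and no test. The RefSeq promoter windows of GRCh38.p14, which run from 250 bases before to 50 bases after an annotated start, were searched on the strand of the transcript for a C followed by at least 5 C or T, beginning within 5 bases of the start. Of 39 initiation factor genes with a window, 11 held the run, or 28.2%, against 13.7% of 27305 genes. Those 27305 include genes below the signal floor of these arrays, defined below. Among other genes past it on both arrays, 1438 held the run and 7504 did not. Of the 13 eIF3 genes, 8 had a window and 5 of these held the run. It was held by 3 of 4 genes of eIF2 and initiator tRNA delivery and by 3 of 8 genes of the cap-binding group. None of 5 eIF2B genes and none of 6 genes of start codon recognition held it. Among ribosomal protein genes, the textbook TOP family, 54 of 69 held it. Runs that open on the annotated first base are printed for the eIF3 and eIF2 genes that have them, 35 bases before the start and 20 from it, with the run in capitals.
EIF3D (chr22:36529147-36529201, minus strand): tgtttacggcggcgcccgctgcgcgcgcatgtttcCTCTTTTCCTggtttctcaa
EIF3F (chr11:7987302-7987356, plus strand): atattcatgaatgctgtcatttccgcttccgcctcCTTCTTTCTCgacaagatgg
EIF3K (chr19:38619153-38619207, plus strand): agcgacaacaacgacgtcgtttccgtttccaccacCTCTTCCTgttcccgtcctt
EIF3M (chr11:32583796-32583850, plus strand): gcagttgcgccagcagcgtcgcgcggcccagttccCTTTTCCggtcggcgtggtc
EIF2A (chr3:150546752-150546806, plus strand): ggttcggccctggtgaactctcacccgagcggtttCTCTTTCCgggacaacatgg
EIF2D (chr1:206612446-206612500, minus strand): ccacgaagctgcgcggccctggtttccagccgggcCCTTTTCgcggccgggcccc
EIF2S3 (chrX:24054921-24054975, plus strand): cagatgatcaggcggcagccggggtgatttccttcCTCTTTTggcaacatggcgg

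Of the eIF2B genes, which lack that run, EIF2B1 and EIF2B2 are shown for contrast by other letters. CCGGAAGT, the core bound by ETS factors, was searched on both strands of the whole window. It was found in 9 of the 39 genes, or 23.1%, against 4.95% of 27305 genes. Those 27305 again include genes below the signal floor, and no share was worked out for genes past it. Among ribosomal protein genes, 11 of 69 held CCGGAAGT. Of the 5 eIF2B genes 2 held it, EIF2B1 and EIF2B2, where it lay at the start itself, given here in capitals.
EIF2B1 (chr12:123633667-123633721, minus strand): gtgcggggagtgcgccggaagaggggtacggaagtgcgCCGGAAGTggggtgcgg
EIF2B2 (chr14:75002886-75002940, plus strand): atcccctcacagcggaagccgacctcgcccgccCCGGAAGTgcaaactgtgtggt
ACANNNTGT, a spaced pair of half-sites of the kind that steroid receptors such as PGR bind, reads the same on both strands and was found in the windows of EIF3F and EIF4G1. That is 5.13% of the 39 genes, against 6.54% of all. A match of letters is a description and does not show binding.

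PGR itself gave no check of the labels. Its brighter probe set read 16.1 on the control array and 73.3 on the PGR siRNA array, both below the signal floor of 97.9, which is the median of all values of single-gene probe sets. Directions therefore rest on the labels of the arrays. Of 8 epithelial markers, KRT8, KRT18, KRT19, EPCAM, CDH1 and MUC1 were past the floor on both arrays, MUC1 with only 122 and 174. CEACAM6 passed it on the control array alone, at 120 and 79.3, and CEACAM5 was below it on both. Of 11 markers of other cell types, 10 were read and 6 of these were below the floor on both arrays, among them PTPRC, CDH5 and LUM. COL1A1 read 299 on either array, and DCN, CD14 and PECAM1 passed the floor on the control array alone. The part of other cells in the results was not tested. Values are linear intensities, given as control and then PGR siRNA, and differences are PGR siRNA minus control of log2(intensity + 1). A gene was read by its brightest probe set. With 1 array per condition there is no replicate error and no test, and precision is limited by that number of arrays.

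The initiation factors differed little between the arrays. Of the 47 genes, 45 reached the floor, all of them on both arrays, and none was 1.5-fold higher or 1.5-fold lower. Among all 11614 genes past the floor on at least 1 array, 3.65% read higher by 1.5-fold or more and 4.72% lower by as much. Among the 10840 past the floor on both, the shares were 1.86% and 2.31%. The median difference of the 45 was 0.063 on the log2 scale, beside 0.021 for all genes past the floor, and 28 were above 0, or 62.2%, against 53.9% of all genes past the floor on both arrays. EIF1AY, the Y-linked copy of EIF1AX, is counted in these totals and its values are not given. The other 44 ran from -0.20 for EIF5A2 to 0.42 for EIF1AD, and 43 of them lay within 0.3 of no difference, as did 78.4% of all genes past the floor on both arrays. EIF1AY lay below this range and outside that limit. The SD across the 45 genes was 0.14, against 0.27 across all genes past the floor on both arrays and 0.19 across the 3108 other genes of like signal, those between the quartiles of the members' mean signal. In that signal range 6 other genes were higher by 1.5-fold or more and 16 were lower by as much, so that few differences of that size were to be found at the signal of these genes. These SDs describe spread between genes, not error.

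**Figure D1:**
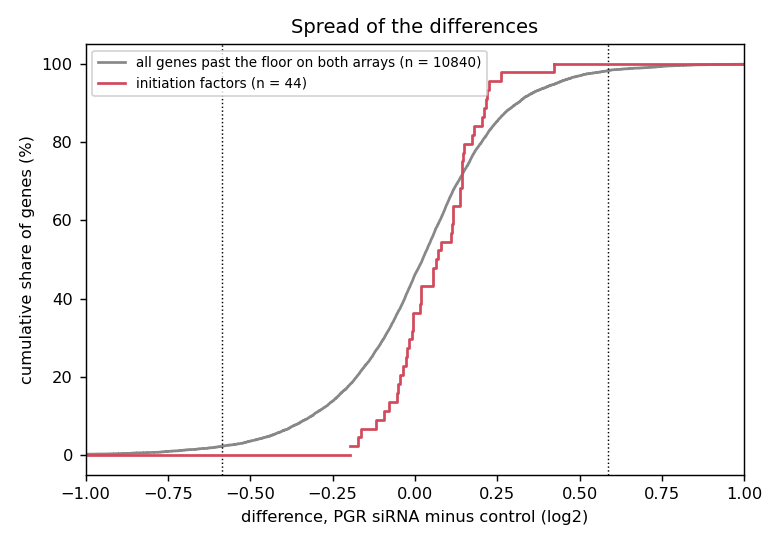
Cumulative share of genes (%) against the difference between the arrays (PGR siRNA minus control, log2), for 44 initiation factors and for all 10840 genes past the signal floor on both arrays, with 1.5-fold as dotted lines. The line of the initiation factors is steeper and stays between the dotted lines, from -0.20 to 0.42.

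The scale of disagreement within the arrays is given by genes read by several probe sets. Over 5203 genes with at least 2 probe sets past the floor on both arrays, probe sets of the same gene differed by an SD of 0.26 on the log2 scale, and over 24 such initiation factors by 0.19. Differences between the arrays were thus mostly smaller than the disagreement between probe sets of a gene. In 8 of the 24 genes all such probe sets had the same sign. Of 100 initiation factor probe sets past the floor on both arrays, 1 was at least 1.5-fold higher and none was 1.5-fold lower, where the shares among all such probe sets were 2.21% and 3.23%. That probe set belonged to EIF5A2. The 55 probe sets not used to read a gene had a median of 0.012, with 29 above 0 and 26 below. The 17 probe sets below the floor on both arrays ran from -3.64 for one of EIF3B to 3.14 for one of EIF2S2, values without usable signal.

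**Figure D2:**
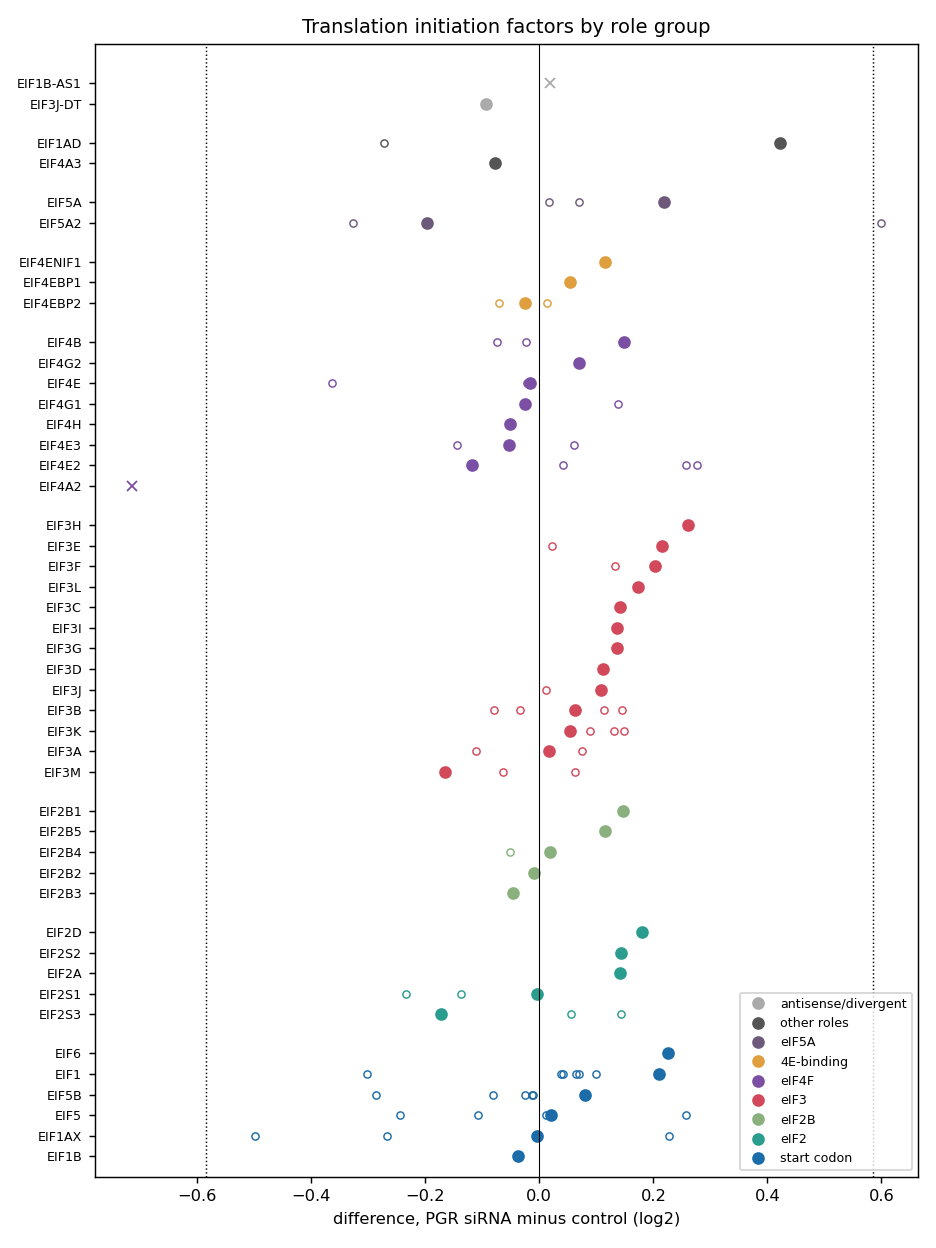
Difference between the arrays (PGR siRNA minus control, log2) for each initiation factor gene except EIF1AY, grouped and coloured by role. Filled points are the probe set that reads the gene, open points are its other probe sets past the floor on both arrays, crosses are genes below the floor on both arrays, and dotted lines mark 1.5-fold. Filled points of eIF3 lie right of 0 in 12 of 13 genes, and the open point at 0.60 belongs to EIF5A2.

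The eIF3 complex was the largest group, with 13 genes past the floor and a median of 0.14 (log2), and 12 of them read higher on the PGR siRNA array. Of all genes past the floor on both arrays, 53.9% read higher there. None reached 1.5-fold. Its core is built around PCI and MPN domain subunits. Of these, EIF3H read 11396 on the control array and 13661 on the PGR siRNA array, a difference of 0.26 and the highest of the group. EIF3E read 23300 and 27046 (0.22), and EIF3F read 13281 and 15287 (0.20). The same core holds EIF3M, which went the other way, at 13725 and 12243, a difference of -0.16. Its other probe sets past the floor stood at -0.064 and 0.063, so the sign of EIF3M depended on the probe set. EIF3L read 20506 and 23116 (0.17) and EIF3K read 8622 and 8950 (0.054), with its other probe sets up to 0.15. EIF3A, the scaffold subunit, read 9968 and 10084 (0.017), with its other probe sets at -0.11 and 0.075. EIF3C stood at 0.14 by a probe set that read only 112 and 124, close to the floor.

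The peripheral eIF3 subunits read higher on the PGR siRNA array by similar amounts. EIF3G read 4431 and 4869 (0.14), EIF3I read 6337 and 6966 (0.14), and EIF3B read 4424 and 4623 (0.063), with other probe sets from -0.079 to 0.14. EIF3D, a subunit that can bind the cap of some mRNAs, read 10688 and 11554 (0.11). EIF3J, a loosely held subunit, read 5010 and 5403 (0.11). The 14 eIF3 probe sets that did not read a gene were above 0 in 10 cases, with a median of 0.069. Of all 55 such initiation factor probe sets past the floor on both arrays, these included, 29 were above 0. No such share was worked out for all genes. The remaining eIF3 probe sets read the same RNA on the same arrays, for genes already counted. They are therefore no separate observation of the direction within eIF3. Sizes within eIF3 were at or under the disagreement between probe sets of a gene.

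The difference between the arrays was more positive at the top of the signal range, where many initiation factors lie. When the genes past the floor on both arrays were cut into 10 bins of rising signal, the brightest bin held 21 of the 45 initiation factors. The median difference in it was 0.067, and in the other bins it ran from -0.029 to 0.030. After the running median of 201 other genes of like signal was subtracted, a step added after seeing the data, the eIF3 median was 0.057, with 11 of 13 genes above 0. EIF3H then stood at 0.19, EIF3F at 0.12 and EIF3M at -0.24. The median of all 45 was 0.027, with 25 above 0. The part of this trend with signal in the direction of eIF3 was not tested beyond these values.

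**Figure D3:**
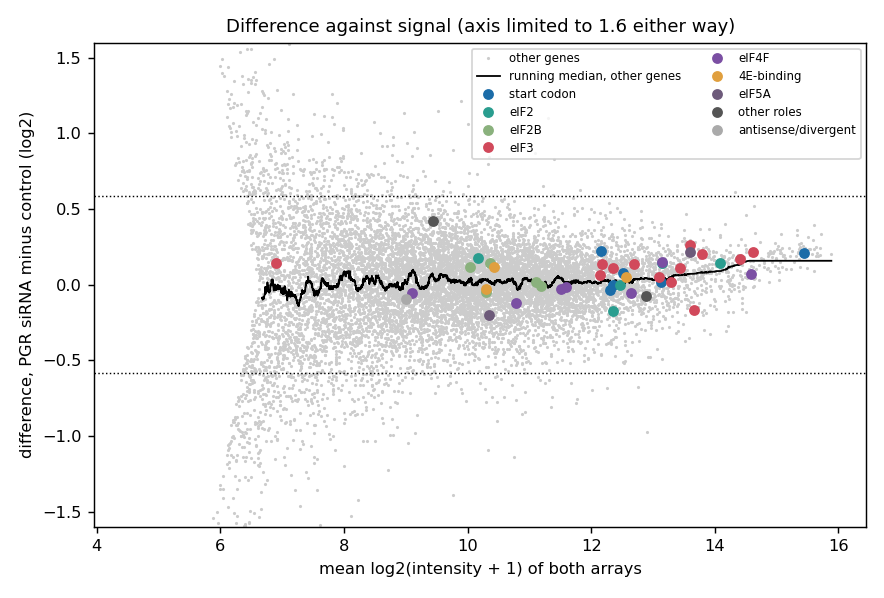
Difference between the arrays (PGR siRNA minus control, log2) against the mean log2(intensity + 1) of both arrays, with other genes past the floor in grey, initiation factors coloured by role, the running median of other genes as a line and 1.5-fold as dotted lines. The line climbs at the bright end, and EIF1, EIF3E, EIF3L and EIF3H lie there.

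Genes of eIF2 and initiator tRNA delivery had a median of 0.14 over 5 genes, 3 of them higher on the PGR siRNA array, and the subunits of eIF2 itself did not share a direction. EIF2S2, the beta subunit, read 16526 and 18259 (0.14). EIF2S1, the alpha subunit that stress kinases phosphorylate, read 5671 and 5654 (-0.0043), and its other probe sets went down to -0.23. EIF2S3, the gamma subunit that binds GTP and the tRNA, read 5554 and 4928 (-0.17), whereas its other probe sets gave values up to 0.14. EIF2A and EIF2D, which can deliver tRNA without eIF2, read 8595 and 9484 (0.14) and 1077 and 1220 (0.18). The highest value of the group was thus that of EIF2D, and each of EIF2A, EIF2D and EIF2S2 had only 1 probe set past the floor.

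The eIF2B subunits, which form the exchange factor that the phosphorylated alpha subunit inhibits, had a median of 0.018 over 5 genes, with 3 higher and 2 lower. EIF2B1, a regulatory subunit, was highest at 1249 and 1383 (0.15). EIF2B5, the catalytic subunit, read 1005 and 1088 (0.11), and EIF2B4 read 2178 and 2206 (0.018). EIF2B2 stood at -0.0087 and EIF2B3 was lowest at 1272 and 1231 (-0.046). The whole complex therefore lay within a narrow band, with EIF2B1 and EIF2B2, which both carry the ETS letters at their start, at different points of it.

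Factors of start codon recognition and subunit joining had a median of 0.050 over the 6 genes given, with 4 higher and 2 lower. EIF6, which keeps the ribosomal subunits apart until the large one is mature, read 4211 and 4926 (0.23) by its only probe set. EIF1, which guards the fidelity of start codon choice, read 41640 and 48166 (0.21), and its other probe sets ran from -0.30 to 0.10. EIF1B, a close paralog, read 5110 and 4981 (-0.037). The paralogs thus stood on opposite sides of 0. EIF1AX, which works with EIF1 in scanning, read 5247 and 5231 (-0.0043) by a probe set whose name marks shared sequence, and -0.50 by an unmarked one that read 3018 and 2135. The remaining 2 probe sets of EIF1AX gave -0.27 and 0.23, so the gene has no settled direction. EIF5, the GTPase activator of eIF2, stood at 0.020 with other probe sets from -0.24 to 0.26. EIF5B, the GTPase of subunit joining, stood at 0.080 with the others down to -0.29.

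The cap-binding group was the only one of the groups with 5 or more genes whose median was below 0, at -0.026 over 7 genes, with 2 higher and 5 lower. EIF4E, the cap-binding protein, read 3108 and 3071 (-0.017). Its paralogs EIF4E2, which forms a repressive cap complex, and EIF4E3 read 1833 and 1689 (-0.12) and 557 and 537 (-0.053). All 3 paralogs of eIF4E were thus slightly lower by the probe set that reads them, but the other probe sets of EIF4E2 were all above 0, up to 0.28. The other probe sets past the floor gave -0.14 and 0.061 for EIF4E3, and -0.36 and -0.022 for EIF4E. The scaffold EIF4G1 read 2932 and 2881 (-0.026), with another probe set at 0.14, and EIF4G2, a relative that does not bind eIF4E, read 23917 and 25109 (0.070). EIF4B and EIF4H, which stimulate the helicase, read 8649 and 9583 (0.15) and 6505 and 6276 (-0.052). EIF4B was the highest of the group, with its other probe sets at -0.075 and -0.024. EIF4A2, a helicase, was below the floor on both arrays at 58.9 and 35.5, and no direction is given. Its other probe sets, and those of EIF4A1, EIF3CL and EIF4EBP3, name several genes and were not read.

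The inhibitors of eIF4E did not differ in a common direction. EIF4EBP1, the main target of mTORC1 among them, read 5952 and 6179 (0.054). EIF4EBP2 read 1272 and 1250 (-0.025), with other probe sets past the floor on both arrays at -0.071 and 0.014. EIF4ENIF1, which carries eIF4E to the nucleus, read 1317 and 1427 (0.12). These are mRNA levels and say nothing of the phosphorylation by which mTORC1 acts on the binding proteins.

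EIF5A and EIF5A2, paralogs that carry the amino acid hypusine and help ribosomes through difficult stretches, stood apart from each other. EIF5A read 11447 and 13325 (0.22), and its other probe sets were also above 0. EIF5A2 read 1386 and 1208 (-0.20). The other probe sets of EIF5A2 gave -0.33 and 0.60, the last from readings of 253 and 384, so the probe sets of EIF5A2 spanned more than its distance from EIF5A. EIF1AD, a nuclear protein named for a shared domain, had the largest difference of all, at 597 and 801 (0.42). Its other probe set read 282 and 233 (-0.27), and of genes past the floor on both arrays, 10.8% had a difference at least as large as that of EIF1AD. EIF4A3, a helicase of the exon junction complex, read 7813 and 7404 (-0.078). The divergent transcript EIF3J-DT read 530 and 497 (-0.094), and EIF1B-AS1 was below the floor on both arrays.

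**Figure D4:**
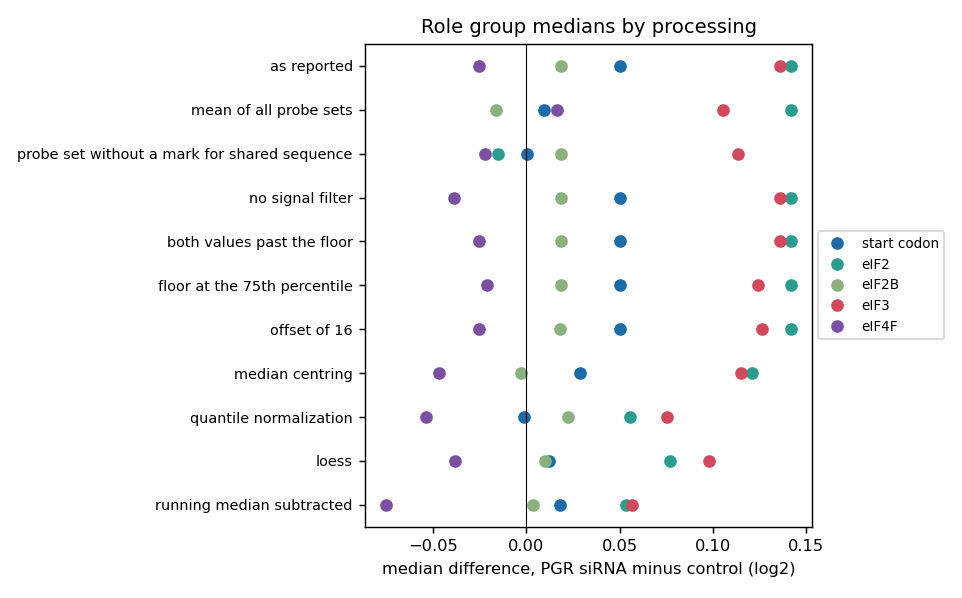
Median difference (PGR siRNA minus control, log2) of the role groups with at least 5 genes, under the processing reported and each alternative. The eIF3 median stays right of 0, between 0.057 and 0.14, and the medians of the other groups shown lie on both sides of 0.

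Small medians of this kind moved with the processing. The eIF3 median lay between 0.057 and 0.14 in all settings tried. With every probe set of a gene averaged, those below the floor included, only 8 of its 13 genes were above 0. EIF3H (-0.56), EIF3F (-0.61) and EIF3B (-0.57) were then below 0, each through a probe set below the floor on both arrays (-1.38, -2.17 and -3.64). Past the floor, the probe sets of EIF3H and EIF3F were all above 0, and those of EIF3B ran from -0.079 to 0.14. EIF3A also fell below 0 with that average, at -0.0066, through a probe set past the floor (-0.11). EIF3M was below 0 both as reported (-0.16) and with the average (-0.27). The eIF2 median was -0.015 with unmarked probe sets, a setting that kept a marked one where a gene had no other. EIF2S2 dropped out there, because its unmarked probe set is below the floor on both arrays, which left 4 genes. The eIF2B median was -0.0028 with median centring. Averaging every probe set of a gene gave -0.016 for eIF2B and 0.016 for the cap-binding group, and that of start codon recognition was -0.0014 with quantile normalization. For these 4 groups no direction can be stated.

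The pyrimidine run at the start was set beside the differences. The 10 initiation factors with the run and past the floor had a median of 0.090, with 7 above 0, and the 27 without it had a median of 0.018, with 14 above 0. Those with the run also had more signal, a median of 13.1 on the log2 scale against 11.6. After subtraction of the running median of like signal the medians were 0.029 and -0.0096. Among other genes past the floor on both arrays, the median was 0.035 for 1438 with the run and 0.022 for 7504 without it. EIF3D, EIF3F, EIF3K, EIF2A and EIF2D, printed above, read higher on the PGR siRNA array. EIF3M and EIF2S3, which open with a run of the same kind, read lower by their brightest probe set. Their other probe sets past the floor on both arrays gave -0.064 and 0.063 for EIF3M, and 0.14 and 0.056 for EIF2S3.

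Other genes of translation were read in 5 further lists. They name 38 genes, of which 33 were read and reached the floor. PDCD4, at 86.3 and 25.8, was below it on both arrays, and the others had no probe set that names them alone. Of the 33, 25 were above 0 (53.2% of all genes past the floor on at least 1 array were). Their median was 0.13, with 1 at least 1.5-fold higher and none 1.5-fold lower. Elongation factors, which move the ribosome along the mRNA, were above 0 in 6 of 6 read, of 9 listed, with a median of 0.26. With both values required past the floor, which leaves out EEF1A2, 5 of 5 were above 0, with a median of 0.19. EEF1A2 was the single gene past 1.5-fold, at 84.2 and 159 (0.91), with its control value below the floor, so this is no exact size. It passed the floor through its PGR siRNA value alone, and DOHH, given below, through its control value alone. The sign of either gene in these counts was thus fixed by the filter. EEF1A1 read 48009 and 60445 (0.33), with its other probe sets down to -0.29, and EEF2K, the kinase that inhibits elongation, was lowest at 0.072. Termination and recycling factors were above 0 in 7 of 8, with a median of 0.16, from GSPT1, a release factor, at -0.25 to its paralog GSPT2 at 0.27. The elongation median ran from 0.14 to 0.26 over all settings, with 5 of 6 above 0 when every probe set was averaged or with unmarked probe sets. The termination median was -0.065 when every probe set of a gene was averaged, those below the floor included, with 4 of 8 above 0. It was above 0 in the other settings, with 5 of 7 genes above 0 with unmarked probe sets. Past the floor, other probe sets went down to -0.18 for HBS1L and -0.11 for DENR, and up to 0.054 for GSPT1. EEF2, the translocase of elongation, read 33302 and 38085 (0.19), and both it and EEF1A1 lie in the signal range where the median of all genes was more positive.

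The eIF2 kinases and phosphatase subunits had a median of 0.12, with 5 of 6 above 0. EIF2AK3, the kinase of the unfolded protein response known as PERK, was highest at 1558 and 2165 (0.47) by its only probe set past the floor on both arrays, and EIF2AK1, the heme-regulated kinase, was lowest at -0.10. Partners and regulators of eIF4F had a median of 0.00028 over 11 genes, 6 of them above 0. Among them RPS6KB2, an S6 kinase, was highest at 169 and 251 (0.57), and PAIP1, which binds poly(A)-binding protein, was lowest at 4609 and 3792 (-0.28). For the hypusine enzymes, DHPS stood at 0.030, and DOHH read 132 and 95.4, the second value below the floor. None of these genes reached 1.5-fold.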

How the data were processed

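For each of 2 AsPC-1 cultures, the deposited table holds a linear intensity for every probe set of a 3' expression array. How the authors summarised probes, corrected background and scaled arrays is not stated in the labels or the methods. Their 2%-trimmed means of the arrays were 500.1 and 500.1, which shows scaling to a common level. Of the probe sets, 41097 had 1 gene symbol in the platform annotation, 1801 several and 11777 none, and only the first were used. Symbols were updated through gene identifiers to RefSeq (GRCh38.p14) for 41043 of them. Each of 19775 genes was read by its brightest probe set, and 11614 reached the floor on at least 1 array. No test was possible, and 1.5-fold served as a rule of size. Members, role groups and lists were chosen with earlier results of these data known, and the promoter letters after seeing the windows. Every member is named. Both values are given for those past 1.5-fold, at either end of a role group or in a pair of paralogs, and for others by choice. Promoter windows were matched by gene identifier. The calculation was checked on simulated data. Calculations used pandas 2.3.3, numpy 2.4.6 and scipy 1.17.1 under Python 3.11.15, loess came from statsmodels 0.14.6, and figures from matplotlib 3.10.9. Proteins were not analysed here.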

Additional observations from a re-analysis of the deposited data

How the results depend on the processing

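No initiation factor was past 1.5-fold with both values past the floor, a floor at the 75th percentile, an offset of 16, loess with a span of 0.7, quantile normalization, median centring, unmarked probe sets or subtraction of the running median of 201 genes (added after seeing the data), nor past 2-fold in the reported setting. Averaging every probe set of a gene, those below the floor included, put 1 gene higher (EIF2S2 at 1.64) and 2 lower (EIF4ENIF1 at -1.17 and EIF3F at -0.61). With no signal filter 1 was lower, EIF4A2 at -0.71. Counted by probe set with a value past the floor on either array, 1 of EIF5A2 was higher and 1 of EIF4EBP2 lower. The median of all members ran from 0.016 with that average to 0.067 with the higher floor. Of 436 recomputed member differences, 175 were identical to those reported, mostly because the setting changes only which genes count or the gene has 1 probe set. Of the other 261, 251 moved by less than the disagreement between probe sets of a gene. That limit of 0.26 is larger than most of the reported differences, so a sign can change within it. EIF4G2, for example, went from 0.070 to -0.065 with quantile normalization. The 10 that moved by more did so with that average or with unmarked probe sets, among them EIF3H at -0.56 and EIF3B at -0.57. The arrays had no replicates to leave out. Differences smaller than that disagreement cannot be told apart from it on single arrays.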

Other observations

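A further 10 probe sets join an initiation factor with other genes, such as small nucleolar RNAs, in the annotation and so name no single gene. All were past the floor on both arrays. Their differences ran from -0.29 to 0.28 on the log2 scale, with 7 above 0 and a median of 0.11, and none reached 1.5-fold.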
